A study of Mus musculus with 4 samples.

Results

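The D-type cyclins Ccnd1, Ccnd2 and Ccnd3, their kinase partners Cdk4 and Cdk6, and the CDK inhibitors Cdkn1a, Cdkn1b, Cdkn2a, Cdkn2b and Cdkn2c were described in 4 mouse RNA sequencing libraries. These 10 genes were taken by gene name from a deposited table of 54532 genes, and each name matched 1 row. The series concerns Piezo1, a cation channel opened by mechanical force, in CD4+ T cells that make interleukin 9. All 4 libraries carry a label of CD4+ T cells isolated by flow cytometry from B16 tumours, which grow from a pigmented melanoma cell line of the mouse. Their treatment field names only the tumour microenvironment. 2 libraries carry the genotype label WT and 2 the label Piezo1KO. The allele, any Cre driver, the age of the mice and whether libraries came from separate animals were not stated in the labels, so p-values capture just the variation among the libraries at hand, and that may be technical. Libraries are numbered by the sample number in their titles. In the table, WT 1 and WT 2 carry the numbers 2 and 3.

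D cyclins are made in response to growth signals and bind CDK4 or CDK6. The active kinases phosphorylate the retinoblastoma protein, which releases E2F factors and lets a cell pass from G1 into S phase. Inhibitors of the INK4 family, encoded by the Cdkn2 genes, bind CDK4 and CDK6 themselves, whereas p21 (Cdkn1a) and p27 (Cdkn1b) bind cyclin-CDK complexes and restrain CDK2. In melanocytes and melanoma this checkpoint is a well known site of genetic loss, chiefly at Cdkn2a, and B16 cells are known to lack that gene.

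The libraries went against their label. The 12 melanocyte markers summed to an FPKM (fragments scaled to gene length and to a library size set by the authors) of 7036 to 7052 in WT and 7610 to 7711 in Piezo1KO. As a share of assigned reads the order was the other way: 2.96% in WT 1, 3.02% in WT 2, 2.42% in Piezo1KO 1 and 1.30% in Piezo1KO 2. The 18 T cell markers summed to 3.44 and 2.84 in WT and to 19.7 and 13.7 in Piezo1KO, with Cd3g, Trac and Trbc2 among 6 markers at 0 in WT 1, Cd247 among 4 at 0 in WT 2, and Cd3e and Cd5 at 0 in Piezo1KO 2. Markers of macrophages and monocytes (13 genes) summed to 73.0 to 97.9 in WT and to 314 to 492 in Piezo1KO. Those of neutrophils (8 genes, Ly6g at 0 in all 4 libraries) summed to 2.33 to 2.52 and to 58.6 to 185, and those of erythroid cells (6 genes) to 244 to 389 and to 5124 to 8472. Erythroid markers held 0.0389% and 0.0247% of assigned reads in WT, 0.388% in Piezo1KO 1 and 0.356% in Piezo1KO 2. Markers of B cells, NK cells, fibroblasts and endothelial cells summed to at most 13.4 in any library. Mitochondrial transcripts took 2.99% to 3.86% of assigned reads in WT, 20.1% in Piezo1KO 1 and 48.3% in Piezo1KO 2. Assigned reads per library ranged from 13789266 to 15892797. Piezo1 itself stood at 27.8 and 27.6 FPKM in WT, against 18.7 and 7.64 in Piezo1KO, a log2 difference that did not pass (limma adjusted p = 0.166), so transcript of the targeted gene remained in both libraries labelled Piezo1KO. Which part of the gene was removed was not stated. The values of the G1 genes therefore belong to mixed RNA, rich in melanocyte transcripts in all 4 libraries and in erythroid transcripts in Piezo1KO, and cannot be assigned to T cells. In such bulk RNA, fewer cells of a type and less RNA per cell cannot be told apart.

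Promoter sequence is shown for the 2 members with the highest levels in the Piezo1KO libraries, Cdkn1a and Cdk4, because each holds a recognisable arrangement of motifs within the 250 bases before a RefSeq start site (build GRCm38.p6, plus strand for both genes). Capitals mark the motifs. In the Cdkn1a window upstream of the first start they mark a p53 element, a run of 20 bases matching a pair of adjacent p53 consensus decamers with at most 1 mismatch. In the Cdkn1a window upstream of the second start they mark GC boxes (GGGCGG, either strand). In the Cdk4 window they mark E boxes (CACGTG, the same on both strands) and a GC box read on the other strand.
Cdkn1a, first start, chr17:29090729-29090978: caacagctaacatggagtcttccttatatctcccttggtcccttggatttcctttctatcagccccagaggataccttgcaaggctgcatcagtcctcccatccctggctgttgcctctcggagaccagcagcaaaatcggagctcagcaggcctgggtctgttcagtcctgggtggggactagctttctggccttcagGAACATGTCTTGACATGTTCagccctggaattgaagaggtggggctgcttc
Cdkn1a, second start, chr17:29093519-29093768: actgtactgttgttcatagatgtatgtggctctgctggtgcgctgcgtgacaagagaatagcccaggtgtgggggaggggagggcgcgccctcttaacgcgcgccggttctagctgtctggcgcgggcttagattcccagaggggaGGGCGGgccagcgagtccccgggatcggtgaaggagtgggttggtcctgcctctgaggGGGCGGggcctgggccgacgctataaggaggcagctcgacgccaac
Cdk4, chr10:127063285-127063534: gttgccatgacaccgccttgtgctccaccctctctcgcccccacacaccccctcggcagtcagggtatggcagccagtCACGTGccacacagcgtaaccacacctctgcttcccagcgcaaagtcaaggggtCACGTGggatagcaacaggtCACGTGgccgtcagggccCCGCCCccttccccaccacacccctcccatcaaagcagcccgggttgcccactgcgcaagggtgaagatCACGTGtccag

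The p53 element of Cdkn1a begins 51 bases before the first start. It was searched for after the sequence had been seen, and 25 of 32851 promoter windows of the same length (0.0761%) held such an element. The Cdk4 window held 4 E boxes, beginning 172, 118, 98 and 11 bases before the start. An E box was present in 6.02% of windows and 4 or more in 7 windows (0.0213%), a number chosen for comparison after the Cdk4 count was known. GC boxes were found in 32.7% of windows. The TATA box (TATAAA), the CCAAT box (CCAAT), the M box (CATGTG) and E2F sites (TTTGGCGC or TTTCGCGC) were searched on both strands too, and none lay in these 3 windows. The marked motifs do not overlap. 8 of the 10 members matched an entry in the promoter table, with 12 windows in all. Ccnd1 and Ccnd2 were the members without an entry. A match of letters is a description and not a measured binding site.

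Among the members, 8 passed the filter of a mean FPKM of at least 1, and Cdkn2a and Cdkn2b did not. None of the 8 passed the test between Piezo1KO and WT (limma on log2(FPKM + 1), Benjamini-Hochberg adjusted over all 11085 genes tested, threshold 0.05), against 1.1% of all genes tested. 2 of the 8, Cdkn1a and Cdkn2c, had an unadjusted p under 0.05, as had 28.6% of all genes. By limma's voom on reads recovered from the FPKM, 0 of 8 passed and 4 had an unadjusted p under 0.05, against 0.74% and 31.1% of all genes. Both Piezo1KO values lay above both WT values for Cdk4 and Cdkn1a, and below them for Ccnd1, Ccnd2, Cdk6 and Cdkn2c. These are 25% and 50% of the 8, while 33.9% of all genes lay above and 35.6% below. The median log2 fold change of the 8 members was -0.24 and that of all tested genes -0.0059. No count set the members apart from the table as a whole, and they are described gene by gene below.

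**Figure D1:**
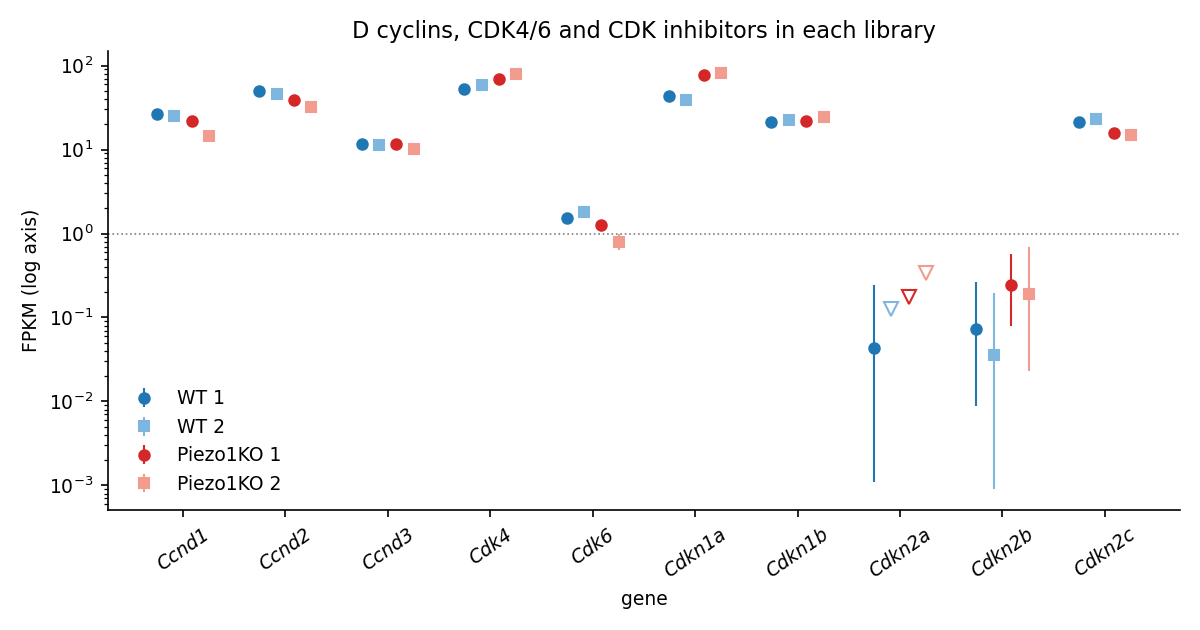
FPKM (log axis) of the 10 genes in each library, with exact 95% binomial intervals of the read count, which cover counting error only; open triangles mark the FPKM that 3 reads would give where a gene had 0 reads, and the dotted line is the filter at 1 FPKM. Cdk4, Ccnd2 and Cdkn1a lead in WT, and Cdkn2a and Cdkn2b lie far below the other 8 genes in all 4 libraries.

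Levels are compared here in FPKM, which is scaled per length. In WT, mean FPKM ran from Cdk4 (55.9) through Ccnd2 (47.5), Cdkn1a (41.0), Ccnd1 (25.8), Cdkn2c (22.2), Cdkn1b (21.8) and Ccnd3 (11.4) to Cdk6 (1.68). The values of Cdkn2c and Cdkn1b overlapped in WT, so their order there is not resolved. In Piezo1KO, Cdkn1a (78.9) stood first, followed by Cdk4 (74.2), Ccnd2 (35.6), Cdkn1b (23.2), Ccnd1 (18.3), Cdkn2c (15.4), Ccnd3 (10.8) and Cdk6 (1.03). The ranges of Cdkn1a and Cdk4 overlapped there, as did those of Ccnd1 with Cdkn1b and with Cdkn2c.

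Of the D cyclins, Ccnd2 was the most abundant in every library. Ccnd2 (chromosome 6, 127125162 to 127152193), the cyclin D2 gene, had 49.7 FPKM in WT 1, 45.3 in WT 2, 39.3 in Piezo1KO 1 and 31.9 in Piezo1KO 2. Both Piezo1KO libraries were below both WT libraries, with the lowest value in Piezo1KO 2. The log2 fold change was -0.41 (standard error 0.17, 95% interval -0.87 to 0.040, limma adjusted p = 0.192). It was -0.12 with the trend of fold change on gene length removed. It was -0.56 without Piezo1KO 1 and -0.27 without Piezo1KO 2. With 1 Piezo1KO library left, a fit takes its residual spread from the WT pair alone. Only the effect size of such a fit is therefore given for each gene. The difference passed after rescaling to assigned reads (-1.20, limma adjusted p = 0.0366), where 15.5% of genes passed. The median of all genes was -0.67 there, so that Ccnd2 stood -0.53 from that median.

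Ccnd1 (chromosome 7, 144929931 to 144939925) encodes cyclin D1, a classic target of mitogenic ERK signalling. It had 26.3 FPKM in WT 1, 25.3 in WT 2, 22.1 in Piezo1KO 1 and 14.4 in Piezo1KO 2, so that the mean was 25.8 ± 0.678 (SD, n = 2) in WT and 18.3 ± 5.45 (SD, n = 2) in Piezo1KO. The groups did not overlap, and Piezo1KO 2 was the lower library of its group. The fitted difference on the log2 scale was -0.50 (standard error 0.23, 95% interval -1.11 to 0.11, limma adjusted p = 0.217). It was -0.80 without Piezo1KO 1 and -0.21 without Piezo1KO 2. The gene passed after rescaling to assigned reads (-1.27, limma adjusted p = 0.0332, or -0.59 from the median of all genes), where 15.5% of all genes passed. Oraov1 overlaps it on the other strand and had up to 197 reads in a library.

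Ccnd3 (chromosome 17, 47505051 to 47599691), the cyclin D3 gene and a D cyclin prominent in lymphocytes, was the least abundant of the 3. Its FPKM was 11.5 and 11.3 in WT and 11.6 and 10.1 in Piezo1KO, and the groups overlapped. The log2 fold change was -0.067 (standard error 0.13, 95% interval -0.42 to 0.29, limma adjusted p = 0.741). It turned to 0.21 with the length trend removed and to 0.024 without Piezo1KO 2. The gene overlaps Bysl on the other strand, which had up to 1387 reads in a library. As no strand setting is given in the sources used here, reads of the pair cannot be told apart.

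Shares within a library do not depend on how the whole library was scaled. Ccnd1 made up 30.0% of the summed D cyclin FPKM in WT 1, 30.9% in WT 2, 30.3% in Piezo1KO 1 and 25.6% in Piezo1KO 2. The groups overlapped (difference -2.53 percentage points, exact permutation test, two-sided, p = 0.667), and the difference was -4.91 points without Piezo1KO 1 and -0.15 points without Piezo1KO 2. Ccnd2 held 56.8% and 55.4% in WT and 53.8% and 56.5% in Piezo1KO, also with overlap. Ccnd3 held 13.1% and 13.7% in WT against 15.9% and 17.9% in Piezo1KO, without overlap (exact permutation p = 0.333, the smallest that 2 libraries against 2 can give). The Ccnd2 and Ccnd3 shares were computed after the values had been seen.

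Cdk4 was by far the main kinase gene of the pair. Cdk4 (chromosome 10, 127063534 to 127067920), whose product drives G1 progression with D cyclins, had 52.8 FPKM in WT 1, 59.1 in WT 2, 70.0 in Piezo1KO 1 and 78.4 in Piezo1KO 2. Both Piezo1KO values were above both WT values. The fitted difference on the log2 scale was 0.40 (standard error 0.16, 95% interval -0.029 to 0.83, limma adjusted p = 0.188). It was 0.48 without Piezo1KO 1 and 0.32 without Piezo1KO 2. Its direction depended on scaling. With values rescaled to the total of assigned reads it was -0.40, where the median of all genes was -0.67, so relative to that median Cdk4 stood 0.28 higher, and it was -0.086 after quantile normalisation. Tspan31 overlaps Cdk4 on the other strand and had up to 1205 reads in a library, so part of either gene's reads may be shared.

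Cdk6 (chromosome 5, 3341485 to 3531008), the other kinase partner of D cyclins and a gene prominent in blood cells, was near the filter. It had 1.54 FPKM in WT 1 (425 reads), 1.81 in WT 2 (515 reads), 1.27 in Piezo1KO 1 (263 reads) and 0.792 in Piezo1KO 2 (83 reads). Both Piezo1KO values were lower than both WT values. The log2 fold change was -0.40 (standard error 0.21, 95% interval -0.95 to 0.14, limma adjusted p = 0.2501), and -0.0085 with the length trend removed. Without Piezo1KO 1 it was -0.58, and without Piezo1KO 2 it was -0.23. It was -0.81 rescaled to assigned reads, -0.68 with a pseudocount of 0.1 and -0.64 in voom, and passed in none of these 3. At 13989 bases its gene length is the greatest among the members. Cdk4 held 97.2% and 97.0% of the summed Cdk4 and Cdk6 FPKM in WT and 98.2% and 99.0% in Piezo1KO (exact permutation p = 0.333).

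**Figure D2:**
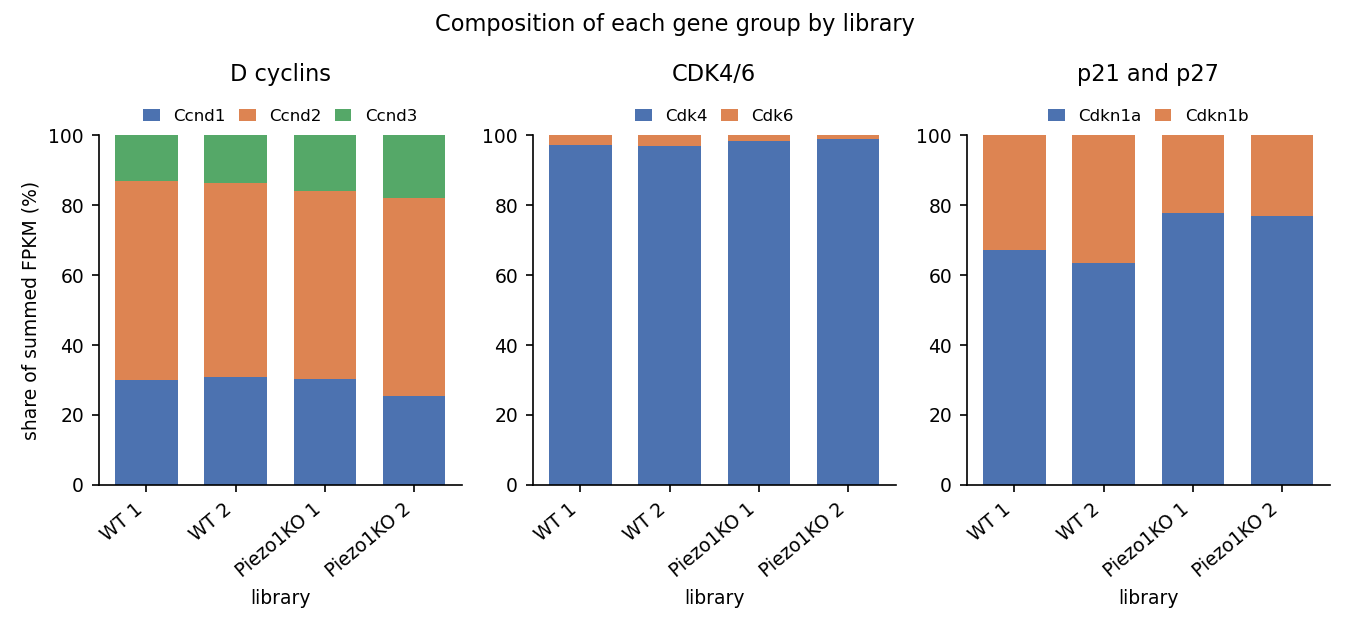
Share of the summed FPKM (%, linear axis from 0) that each gene held in each of the 4 libraries, for the D cyclins, for Cdk4 with Cdk6 and for Cdkn1a with Cdkn1b. Ccnd2 and Cdk4 dominate their groups in every library, and Cdkn1a takes 76.8% to 77.8% of its pair in Piezo1KO against 63.5% to 67.1% in WT.

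The largest difference among the 8 tested members was that of Cdkn1a (chromosome 17, 29090976 to 29100727), which encodes p21, the CDK inhibitor best known as a transcriptional target of p53. It had 43.1 FPKM in WT 1 (3017 reads), 39.0 in WT 2 (2821 reads), 76.6 in Piezo1KO 1 (4013 reads) and 81.2 in Piezo1KO 2 (2161 reads). The groups were well apart, with a WT mean of 41.0 ± 2.86 and a Piezo1KO mean of 78.9 ± 3.23 (SD, n = 2 per group), a ratio of 1.92. The fitted difference on the log2 scale was 0.93 (standard error 0.15, 95% interval 0.53 to 1.33), with an unadjusted p of 0.00228 and a limma adjusted p of 0.0898, so it did not pass the threshold. Of all tested genes, 11.0% had a larger absolute change. AC167363.2 overlaps Cdkn1a on the other strand with at most 18 reads in a library.

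Cdkn1a kept a positive difference in all 15 alternatives, from 0.13 to 0.996 with limma adjusted p from 0.00475 to 0.807. It passed without Piezo1KO 1 (0.97, limma adjusted p = 0.00475) and without Piezo1KO 2 (0.89, limma adjusted p = 0.0177), settings in which 52.9% and 14.2% of all genes passed. Scaled to reads outside mitochondrial genes, the difference was 0.71. Scaled to all assigned reads it was 0.13 (limma adjusted p = 0.807), or 0.80 above the median of all genes. In CPM (reads scaled to the assigned total alone), Cdkn1a had 193 and 178 in WT and 262 and 157 in Piezo1KO, so on that scale the groups overlapped.

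Cdkn1b (chromosome 6, 134920401 to 134925513), which encodes p27, the inhibitor that accumulates in resting cells, differed little between groups. Its FPKM was 21.1 and 22.4 in WT and 21.9 and 24.5 in Piezo1KO, and the groups overlapped. The log2 fold change was 0.087 (standard error 0.14, 95% interval -0.28 to 0.45, limma adjusted p = 0.675), and it turned to -0.13 and -0.69 with the 2 scalings to reads and to -0.11 after quantile normalisation. As a share of the summed FPKM of both genes, Cdkn1a held 67.1% in WT 1, 63.5% in WT 2, 77.8% in Piezo1KO 1 and 76.8% in Piezo1KO 2. The difference of 12.0 percentage points was larger than the spread within either group (SD 2.53 and 0.692 points). Its exact permutation p was 0.333, the smallest possible, which any 2 groups without overlap give here. How often shares of other gene pairs lie apart was not tested. The difference was 10.2 to 13.8 points when any 1 library was left out, 13.1 points as a share of reads and 10.4 points with the length trend removed.

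Of the INK4 genes, Cdkn2c was well expressed and had lower values in both Piezo1KO libraries, a difference that did not pass. Cdkn2c (chromosome 4, 109660876 to 109667189), which encodes p18, had 21.02 FPKM in WT 1, 23.3 in WT 2, 15.95 in Piezo1KO 1 and 14.9 in Piezo1KO 2. The groups did not overlap. The fitted difference on the log2 scale was -0.50 (standard error 0.14, 95% interval -0.86 to -0.14, unadjusted p = 0.0174, limma adjusted p = 0.138), and the sign held in all 15 alternatives, from -1.26 to -0.43. The gene passed after rescaling to assigned reads (-1.26, limma adjusted p = 0.0353, or -0.58 from the median of all genes), where 15.5% of all genes passed. The difference was -0.55 without Piezo1KO 1 and -0.45 without Piezo1KO 2. With the length trend removed it was -0.67, so that for this gene of 2686 bases the difference was larger on that scale. Cdkn2d, the p19 INK4 gene and no member here, had 17.7 and 17.3 in WT and 17.02 and 23.99 in Piezo1KO, and the groups overlapped. Cdkn2c took 54.3% and 57.4% of the summed FPKM of the 2 genes in WT and 48.4% and 38.2% in Piezo1KO, a share computed after the values had been seen.

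**Figure D3:**
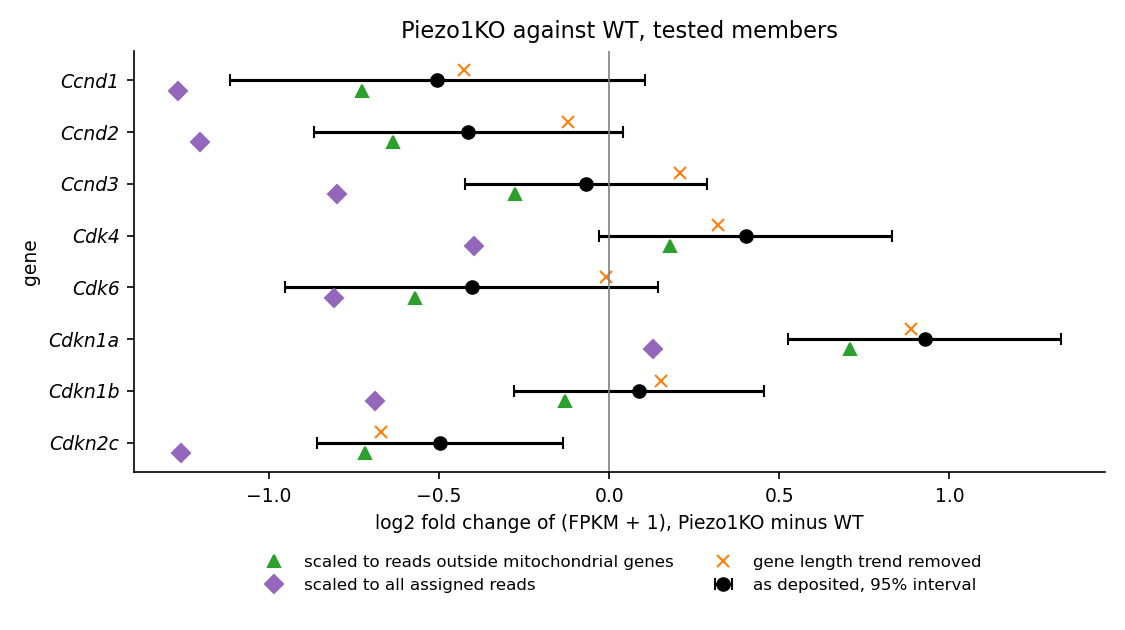
Log2 fold change of FPKM + 1 (Piezo1KO minus WT) for the 8 tested genes, with its 95% interval in black and the value under 2 other scalings and with the gene length trend removed as coloured marks. The interval of Cdkn1a, 0.53 to 1.33, and that of Cdkn2c, -0.86 to -0.14, exclude 0 before adjustment, and the scaling to all assigned reads moves every gene to the left.

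Cdkn2a and Cdkn2b were almost silent. Cdkn2a (chromosome 4, 89274471 to 89294653), which encodes both p16 INK4a and p19 ARF, had 1 read in WT 1 and 0 reads in the other 3 libraries. The read in WT 1 is an FPKM of 0.0433, and 3 reads, the number a count of 0 allows, would give 0.126 in WT 2, 0.174 in Piezo1KO 1 and 0.342 in Piezo1KO 2. Cdkn2b (chromosome 4, 89306299 to 89311039), which encodes p15, had 2 reads in WT 1, 1 in WT 2, 5 in Piezo1KO 1 and 2 in Piezo1KO 2. In FPKM these were, in the same order, 0.0730 (95% interval 0.0088 to 0.264), 0.0354 (0.00090 to 0.197), 0.244 (0.0792 to 0.569) and 0.192 (0.0232 to 0.694). Both Piezo1KO values lay above both WT values, while the counting intervals of all 4 libraries overlapped. With 10 reads in all, these values are too few to size a difference. Neither gene was tested at the filter of 1 FPKM. Without a filter all 10 members were tested by limma, 0 passed and 4 had an unadjusted p under 0.05, against 0.00423% and 17.6% of all genes.

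The near absence of reads was not shared by the nearest expressed neighbour. Mtap, which encodes methylthioadenosine phosphorylase and ends 93.4 kb before Cdkn2a, had 58.8 FPKM in WT 1, 60.7 in WT 2, 56.7 in Piezo1KO 1 and 62.6 in Piezo1KO 2. Klhl9, which encodes a substrate adaptor of a ubiquitin ligase and lies 552 kb away on the same side, had 22.9 and 18.7 in WT and 15.6 and 21.3 in Piezo1KO. On the far side of Cdkn2b, Dmrta1 and Zfp352 had 0 reads in all 4 libraries. Of 40 protein-coding genes within 1 Mb of Cdkn2a, itself included, 30 had 0 reads in every library, 15 of them type I interferon genes named Ifn. 4 genes (Focad, Hacd4, Klhl9 and Mtap) had at least 1 FPKM in all libraries, and all 4 lay on the side of Mtap. That side held nearly all the neighbours, as only Cdkn2b, Dmrta1 and Zfp352 lay on the other. Expression values do not show whether DNA is present or lost. With 1 read of Cdkn2a in all, the libraries held no Cdkn2a signal that could be traced to other cells, although macrophage, neutrophil and erythroid markers were higher in the Piezo1KO libraries.

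**Figure D4:**
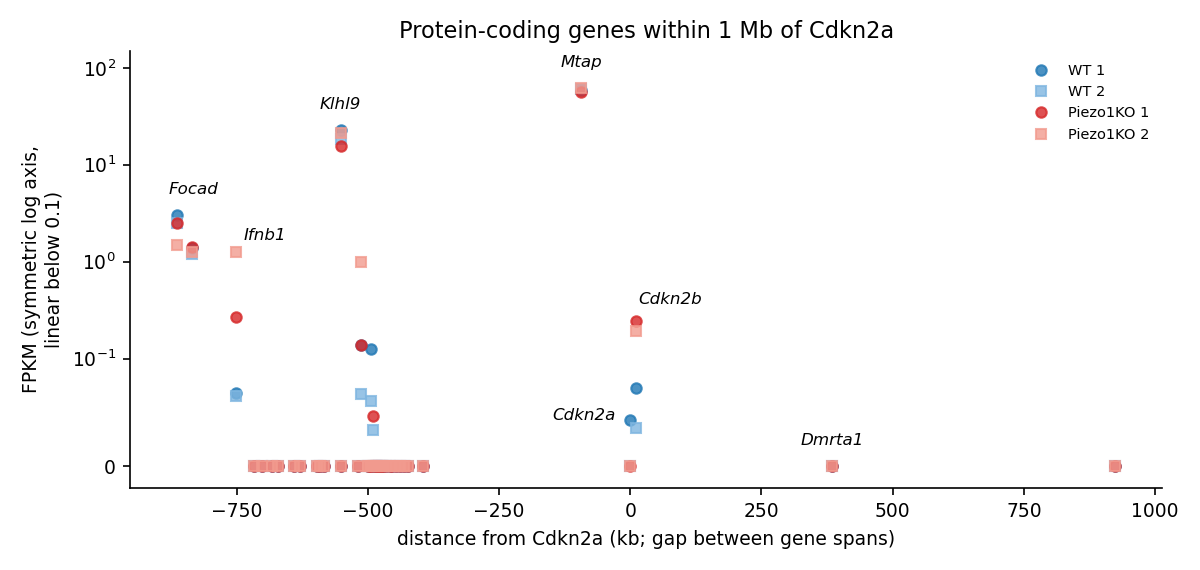
FPKM (symmetric log axis, linear below 0.1) of the 40 protein-coding genes within 1 Mb of Cdkn2a against the gap in kb between each gene and Cdkn2a, with 1 point per library. Mtap, 93.4 kb away, lies at 56.7 to 62.6 in all 4 libraries, while Cdkn2a and Cdkn2b lie below 0.25.

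Differences followed gene length across the table. Among tested protein-coding genes, the median log2 fold change was 0.43 in the quartile of shortest genes (up to 2737 bases), 0.037 in the second (2740 to 4368 bases), -0.14 in the third (4369 to 6679 bases) and -0.31 in the longest. Cdk6, Ccnd2 and Ccnd3, with 13989, 9409 and 8775 bases, fall in the longest quartile, Ccnd1 and Cdkn1b, with 4709 and 4552 bases, in the third, and Cdkn1a and Cdk4, with 3553 and 3249 bases, in the second. Cdkn2c, with 2686 bases, falls in the shortest quartile and was lower in Piezo1KO where most genes of its length were higher. Cdkn1a stood far above the median of its quartile. The part of gene length, mitochondrial share and other cell types in these differences was not tested beyond the values given here.

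The genes around the G1 checkpoint showed no called difference. In the RB and E2F list, 0 of 12 tested genes passed in limma or voom. 3 had an unadjusted p under 0.05 in either tool, against 28.6% of all genes in limma and 31.1% in voom. None of the 12 was above WT in both Piezo1KO libraries, against 33.9% of all genes. 7 were below (58.3%, against 35.6% of all genes), and the list median was -0.23. E2f8 and E2f3, an atypical repressor and an activator of the E2F family, had -0.74 and -0.61 (limma adjusted p of 0.117 and 0.122). Rbl1, the p107 relative of the retinoblastoma protein, had -0.58 and E2f6 -0.48 (limma adjusted p of 0.127 and 0.209). Rb1, the target of CDK4 and CDK6, had 3.47 and 3.28 FPKM in WT and 3.33 and 2.17 in Piezo1KO. E2f1, the activator released by that phosphorylation, had 25.98 and 23.4 in WT and 24.2 and 29.5 in Piezo1KO, and both genes overlapped between groups. With the gene length trend removed, log2 fold changes were -0.61 for E2f8, -0.48 for E2f3, -0.42 for Rbl1 and -0.33 for E2f6. Rb1 and E2f1 had -0.074 and 0.019 on that scale.

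Downstream of the D cyclins, Cdk2 had the smallest p of its list. Of 10 genes of the cyclin E and late G1 list, 0 passed in limma or voom, and the median was -0.22. 1 had an unadjusted p under 0.05 in each, against 28.6% and 31.1% of all genes. In both Piezo1KO libraries 3 were above WT and 4 below (30% and 40%, against 33.9% and 35.6% of all genes). Cdk2, the kinase that p21 and p27 inhibit, had 81.0 and 84.2 FPKM in WT and 54.1 and 53.8 in Piezo1KO, without overlap (log2 fold change -0.61, standard error 0.15, limma adjusted p = 0.128). Cdc25a, the phosphatase that activates CDK2, had -0.34, Ccne2 -0.33 and the kinase chaperone gene Cdc37 0.29 (limma adjusted p of 0.182, 0.238 and 0.239). Ccne1 had 13.2 and 14.5 in WT and 13.7 and 12.3 in Piezo1KO. Myc, whose product binds E boxes, had 24.5 and 25.1 in WT and 24.6 and 18.9 in Piezo1KO, and the groups overlapped for both.

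Genes that set the amount of p27 and of the D cyclin proteins were mixed. Of 16 tested, 0 passed in limma or voom, and the median was -0.19. At an unadjusted p under 0.05 there were 2 in limma and 4 in voom, against 28.6% and 31.1% of all genes. In both Piezo1KO libraries 5 were above WT and 8 below (31.25% and 50%, against 33.9% and 35.6% of all genes). Skp2, the ubiquitin ligase subunit that recognises p27, had 4.93 and 5.09 FPKM in WT and 3.02 and 3.24 in Piezo1KO (log2 fold change -0.54, limma adjusted p = 0.127). Gsk3b, a kinase that marks cyclin D1 for degradation, had -0.57, Foxo1, a transcription factor that induces Cdkn1b, -0.45, and Rbx1, a ligase core subunit, 0.79 (limma adjusted p of 0.138, 0.179 and 0.191). Among the remaining CDK inhibitor genes, 2 were tested and 0 passed in limma or voom. 1 of the 2 had an unadjusted p under 0.05 in each, against 28.6% and 31.1% of all genes. That gene, Cdkn3, a CDK phosphatase, had 2.59 and 2.34 in WT and 4.60 and 4.39 in Piezo1KO (log2 fold change 0.67, limma adjusted p = 0.117). Cdkn1c, the p57 gene, had 2 and 0 reads in WT and 3 and 0 in Piezo1KO.

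Genes of the p53 pathway lay on both sides, in shares near those of the whole table. Of 21 tested genes 0 passed in limma or voom, with 7 and 8 at an unadjusted p under 0.05 (28.6% and 31.1% of all genes had one), and the median was -0.055. 7 genes were above WT in both Piezo1KO libraries and 6 below (33.3% and 28.6%, against 33.9% and 35.6% of all genes). Btg2, an antiproliferative gene, had 1.89 and 2.04 FPKM in WT and 11.6 and 6.76 in Piezo1KO (log2 fold change 1.74, standard error 0.26, limma adjusted p = 0.0803). Plk2 and Gadd45a, further stress and p53 targets, had 1.03 and 1.07 (limma adjusted p of 0.0908 and 0.118). Mdm4, an inhibitor of p53, had 4.88 and 5.90 in WT and 2.22 and 2.14 in Piezo1KO (log2 fold change -1.002, standard error 0.15, limma adjusted p = 0.0802). Trp53 itself had 25.5 and 23.8 in WT and 25.6 and 19.5 in Piezo1KO, and Mdm2, a p53 target and its ubiquitin ligase, 11.0 and 13.2 in WT and 11.5 and 13.3 in Piezo1KO. Both overlapped between groups.

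Of 18 genes of that list and Cdkn1a that had a promoter entry, 2 held the p53 element in a 250-base window, Cdkn1a and Ccng1. Ccng1, the cyclin G1 gene, had 38.6 and 36.6 FPKM in WT and 38.2 and 36.4 in Piezo1KO, a log2 fold change of -0.011 (95% interval -0.37 to 0.35). Its groups overlapped. Sequence outside these windows was not searched for the element, and a part of p53 in the values of either gene was not tested. Ccng1 was named for this pair after the search.

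Markers of S phase and mitosis went both ways. Of 21 tested, 5 were above WT in both Piezo1KO libraries and 7 below (23.8% and 33.3%, against 33.9% and 35.6% of all genes). Their log2 fold changes ran from -0.34 to 0.48. Of these 21, 0 passed in limma or voom, and the median was 0.0050. At an unadjusted p under 0.05 there were 0 in limma and 1 in voom, against 28.6% and 31.1% of all genes. Mki67, the Ki-67 gene, had 8.84 and 14.8 in WT and 13.1 and 16.1 in Piezo1KO, and Pcna, the replication clamp, 110.5 and 113 in WT and 107 and 130.3 in Piezo1KO. The groups overlapped for both. Ccnb1, Tyms, Mcm4 and Mcm7, genes of mitosis, nucleotide synthesis and the replicative helicase, had -0.34, 0.32, -0.32 and 0.29 (limma adjusted p from 0.184 to 0.2498). An absent call at 2 libraries per group does not show that levels were alike: the 95% interval of Mki67 ran from -0.40 to 1.03.

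**Figure D5:**
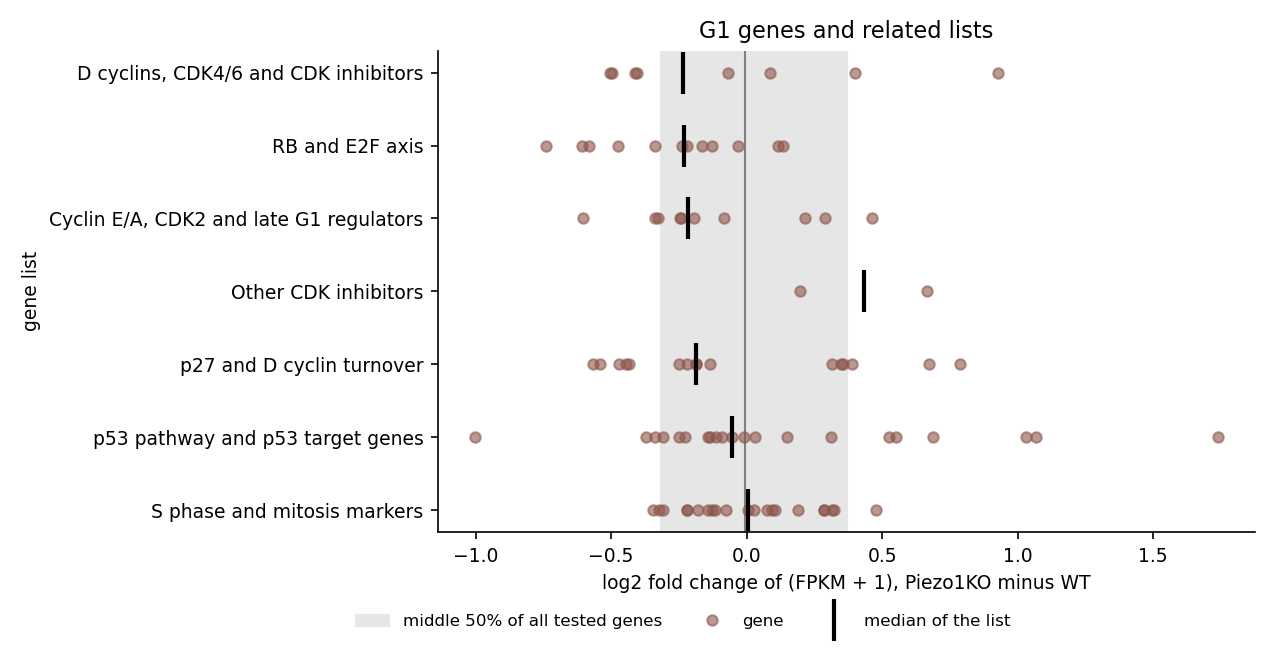
Log2 fold change of FPKM + 1 (Piezo1KO minus WT) of each tested gene in 7 lists, with the list median as a black bar and the middle 50% of all 11085 tested genes (-0.32 to 0.37) shaded. Cdkn1a stands at 0.93 among the members, and the p53 list spans -1.002 (Mdm4) to 1.74 (Btg2).

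The genes whose centred log2 profiles over the 4 libraries were closest to those of 3 members were found by Euclidean distance among 9939 other tested protein-coding genes. For Cdkn1a they were Capg (distance 0.045), Fam50a (0.052) and Prdx5 (0.069). For Cdk4 they were Pdia3 (0.033), Fbl (0.034) and Pdcd6 (0.042), and for Ccnd1 Polrmt (0.015), Zswim1 (0.018) and Ehd3 (0.022). With 4 libraries and so many genes such neighbours are common, and the distances are given as a description.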

How the data were processed

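The deposited table holds 1 FPKM value per gene and library and the gene length in bases. Per the submitters' processing notes, fastp 0.19.7 and featureCounts 1.5.0-p3 were used with build mm10 (GRCm38). The sources used here name no aligner, annotation release, strand setting or FPKM formula. Coordinates are those of the deposited table, and all 10 members had the same coordinates in GENCODE M21.

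FPKM times gene length fell on whole multiples of 1 step in each library (100% of values above 0, tolerance 0.05 reads), which gave whole reads. The library sizes that the authors' FPKM imply were 1.26, 1.28, 0.962 and 0.544 times the reads assigned in WT 1, WT 2, Piezo1KO 1 and Piezo1KO 2, so 2 other scalings were tried. Log2(FPKM + 1) values were tested with limma 3.58.1 in R 4.3.3 (intensity trend, no block, two-sided, 2 residual degrees of freedom). The fit was also tested on simulated data with the same spread setting for every library, whereas the real Piezo1KO pair differed more than the WT pair. On the scale of log2(FPKM + 1), fold changes of low genes are understated. Intervals of read counts are exact 95% binomial intervals and, with the floor of 3 reads, cover counting error only.

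The members, gene lists and tests were chosen with earlier results of these data known. The genes named are all 10 members, up to 4 genes with the smallest p in each list, 13 fixed genes, the neighbours of Cdkn2a and 3 nearest profiles for 3 members. Promoter sequences come from RefSeq (GRCm38.p6).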

Additional observations from a re-analysis of the deposited data

How the results depend on the processing

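The count of 122 genes past the threshold (66.4% of them higher) was 1 without a filter, 68 at a mean FPKM of at least 5, 192 after quantile normalisation, 7 with the gene length trend removed and, on the scale of all assigned reads, 1718, of which 14.7% were higher; 56.1% were higher of the 132 called when scaled to reads outside mitochondrial genes. Leaving out 1 library gave 0 to 5859 genes, 0 without either WT library. In those 2 settings limma had 723 and 616 genes at an unadjusted p under 0.05. The count of members past the threshold was 0, but 3 (Ccnd1, Ccnd2 and Cdkn2c) with FPKM scaled to all assigned reads, where 15.5% of all genes passed, and 0 to 6 when 1 library was left out. The 6 were reached without Piezo1KO 1, where 52.9% of all genes passed, and 1, Cdkn1a, without Piezo1KO 2, where 14.2% passed. A fit with 1 library left in a group takes its residual spread from the other group alone. The counts with 1 library left out therefore hold no spread within the reduced group. Libraries with the same title number are not stated to share an animal or batch. The correlation of their deviations was -0.033, which cannot show whether they do. With the replicate block 264 genes and 0 members passed.

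Directions turned for Cdk4 (-0.40 scaled to all assigned reads, -0.086 after quantile normalisation), Cdkn1b (-0.69 on the scale of all assigned reads, -0.13 on that of non-mitochondrial reads, -0.11 after quantile normalisation) and Ccnd3 (0.21 with the length trend removed, 0.024 without Piezo1KO 2, the upper end of a range from -0.16 when 1 library is left out). Of 119 values of members under the alternatives, 102 kept direction and side of the threshold and 7 turned. The rest newly passed, among them fits with 1 Piezo1KO library left, whose p-values hold no spread within Piezo1KO. The cause was not tested. The median of all genes was -0.0059, -0.67 on the scale of all assigned reads and -0.20 on that of non-mitochondrial reads. The Ccnd1 share differed by -5.60 points with the length trend removed, where the groups did not overlap (exact permutation p = 0.333). The Cdk4 share differed by 5.69 points as a share of reads and by 0.453 with the length trend removed. The voom fit was chosen after seeing the data. Count tests on recovered reads other than voom were not run.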
